A study of Mus musculus with 51 samples.

Results

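The 101 probe sets described here report the messenger RNAs of 46 genes for translation initiation and elongation factors in the mouse ventral prostate. They were chosen from the 22626 probe sets of the arrays by a rule on the gene symbol, set with earlier results of these data known. The rule took every probe set with 1 gene symbol that starts with Eif1 to Eif6, Eef1 or Eef2. It left out the Eif2ak kinases and the binding proteins Eif4ebp1 and Eif4ebp2. Total RNA was measured on 51 Affymetrix arrays in 13 groups, with mice aged 8 to 10 weeks on a standard diet. Wild type mice of the FVB strain received placebo and were sampled at 12 h (4 arrays), 48 h (4 arrays) and 15 d (3 arrays). FVB-AKT1 mice carry an AKT1 transgene. On placebo they were sampled at 12 h (4 arrays), 48 h (5 arrays), 6 d (1 array), 9 d (1 array) and 15 d (7 arrays). On RAD001 (everolimus, an inhibitor of the kinase mTOR) they were sampled at 12 h (5 arrays), 48 h (4 arrays), 6 d (3 arrays), 9 d (4 arrays) and 15 d (6 arrays). No wild type group received RAD001. The labels name neither the promoter of the transgene nor the RAD001 dose, and do not say whether tissue was pooled. The stated aim was to tell biomarkers of drug exposure apart from biomarkers of response.

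Translation of most messages starts when eIF4E binds the cap, the scaffold eIF4G joins it to the helicase eIF4A, and eIF3 brings in the small ribosomal subunit carrying eIF2, GTP and the initiator tRNA. Elongation then runs on eEF1A, which delivers each aminoacyl-tRNA, and eEF2, which moves the ribosome along. AKT and mTOR act on this machinery mainly through proteins: mTOR frees eIF4E from its binding proteins, relieves eEF2 of its kinase and, through S6 kinase, acts on eIF4B. Messages of many translation factors begin with a run of pyrimidines (a TOP sequence), and mTOR controls their translation. The arrays measured messenger RNA only, so neither translation nor these protein steps were seen.

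The first bases of some members are shown because mTOR is known to control translation of messages that begin with a run of pyrimidines. Each line gives 30 bases on the strand of the gene, 6 before and 24 after the start annotated by RefSeq on GRCm38.p6, and capitals mark the longest unbroken run of C or T in that window. The first 3 are eIF3 subunits whose messages were lower in transgenic prostate and whose windows hold a run of at least 8.
Eif3f, chr7:108934409-108934438, plus strand: ggCTCTCTCTCTTTCTCggcaagatggctt
Eif3k, chr7:28981865-28981894, minus strand: ggcgctggtgctgaaagcgCCTTTCCCTTT
Eif3l, chr15:79075217-79075246, plus strand: TCTTCTTCCgctctctcccacgggcttctg
Eef1a1, chr9:78481701-78481730, minus strand: gCCCTCTTCCCgagggtgggggagaacggt
Eef2, chr10:81176625-81176654, plus strand: ccgggcgttgacgtcagcggTCTCTTCCgc
Eif4b, chr15:102073767-102073796, plus strand: gtcggacgccgcgccaCCCCCTCgcgctgc
Eif4h, chr5:134639386-134639415, minus strand: gcgatcaggcagcgcggcggacagCCCCgg

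The run is 15 bases long in Eif3f, 11 in Eif3k, 9 in Eif3l, 10 in Eef1a1 and 8 in Eef2, against 7 in Eif4b and 4 in Eif4h. A run of at least 8 (the letters C and T in any order, on the strand of the gene) stood in 11 of the 37 member genes matched to the RefSeq table (29.7%), and in 3211 of all 27025 genes of that table (11.9%). Of the 11, 10 were bright enough to test and 3 were called between genotypes. Of the 26 without such a run, 24 were tested and 10 were called. The run could lie anywhere in the window, beginning at position -4 in Eif3f but at 14 in Eif3k and 15 in Eef2. The counts are therefore not counts of TOP sequences. A run in the window is a description of the letters near an annotated start and shows no use by the cell.

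The deposited intensities are linear, 1 value for each probe set and array. A floor of 16 was applied before log2, so every change below is a difference of mean log2 intensity, in which 1 is a 2-fold difference. Of the 101 members 87, from 43 genes, passed the filter on dim probe sets in the larger table, which holds 12 h, 48 h and 15 d, and 92, from 45 genes, in the smaller, which holds 6 d and 9 d. Of the 3 genes lost in the larger table, Eif2s3y encodes an eIF2 gamma subunit and Eef1aknmt and Eef2kmt encode methyltransferases of elongation factors. A change was called at an adjusted p below 0.05 in limma, with p-values adjusted by Benjamini-Hochberg over all probe sets tested. Probe sets bind with different efficiency, so no level was compared between probe sets, and those whose name ends in x_at or s_at can also bind related messages.

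Medians of single arrays ran from 91.6 to 109.3 (larger table) and 98.1 to 110.4 (smaller table). Of the 16 arrays of 15 d, 9 stood apart from all others on the first principal component, 5 of transgenic placebo and 4 of RAD001, while the 3 wild type arrays lay with the rest. On 4 arrays over 500 probe sets were listed at 0: transgenic placebo 15 d replicates 8 and 9, RAD001 6 d replicate 1 and RAD001 9 d replicate 3. One Akt1 probe set (1425711_a_at) had medians of 186.5 and 189 in transgenic placebo at 12 h and 48 h against 53.0 and 79.0 in wild type, without overlap, and overlapped at 15 d. The other Akt1 probe set overlapped at 48 h and 15 d, and the labels do not say whether either binds the transgene.

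Messages that mark cell types differed between the groups as well. The marker lists were drawn up with earlier results of these data known. Of 11 smooth muscle markers on the arrays 10 were tested, and 8 were lower and none higher in transgenic placebo, with a median change of -1.01. Their summed intensity at 12 h was 12379 to 15312 in wild type, 5747 to 7933 in transgenic placebo and 8541 to 12569 with RAD001. At 48 h the sums were 10211 to 13959, 5340 to 7641 and 7839 to 11537, and at 15 d 10973 to 13530, 5251 to 8755 and 8258 to 11320. Of 10 fibroblast markers tested 7 were lower, of 6 basal epithelial markers 4 were lower, and of 13 luminal epithelial markers 6 were higher and none lower in transgenic placebo. Over all probe sets tested 15.1% were higher and 18.4% lower. No marker of these 4 lists was at the floor on every array. Of 2 endothelial markers tested 1 was higher, of 3 nerve markers 1 was lower, and of 7 macrophage and lymphocyte markers none was called. In bulk tissue fewer cells of a type and less RNA per cell cannot be told apart, and the part of these markers in the changes below was not tested.

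Of 22 eIF3 probe sets tested 9 were lower and none higher in transgenic than in wild type prostate on placebo, and of 22 of the cap-binding group 9 were lower and 2 higher. Of the 87 members tested 28 were called (32.2%), from 20 genes, against 33.5% of all 13574 probe sets tested, so the share was near the background. Of these 7 were higher (8.05%, against 15.1% of all) and 21 lower (24.1%, against 18.4% of all). The median change of the members was -0.082 and that of all probe sets -0.038. The change is the mean of the differences at 12 h, 48 h and 15 d. Wild type and transgenic placebo arrays did not overlap for 29 of 87 members at 12 h (30% of all probe sets). At 48 h this held for 15 members (28.4% of all) and at 15 d for 11 (13.2%). The other 13 probe sets of eIF3 and 11 of the cap-binding group were not called. None of the 6 of eIF2B, the 7 of the eEF1 complex, the 2 of eIF5A, the 3 of eIF5B and eIF6 or the 2 of eEF2 and its kinase was called. The plot of changes by role shows this order.

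**Figure D1:**
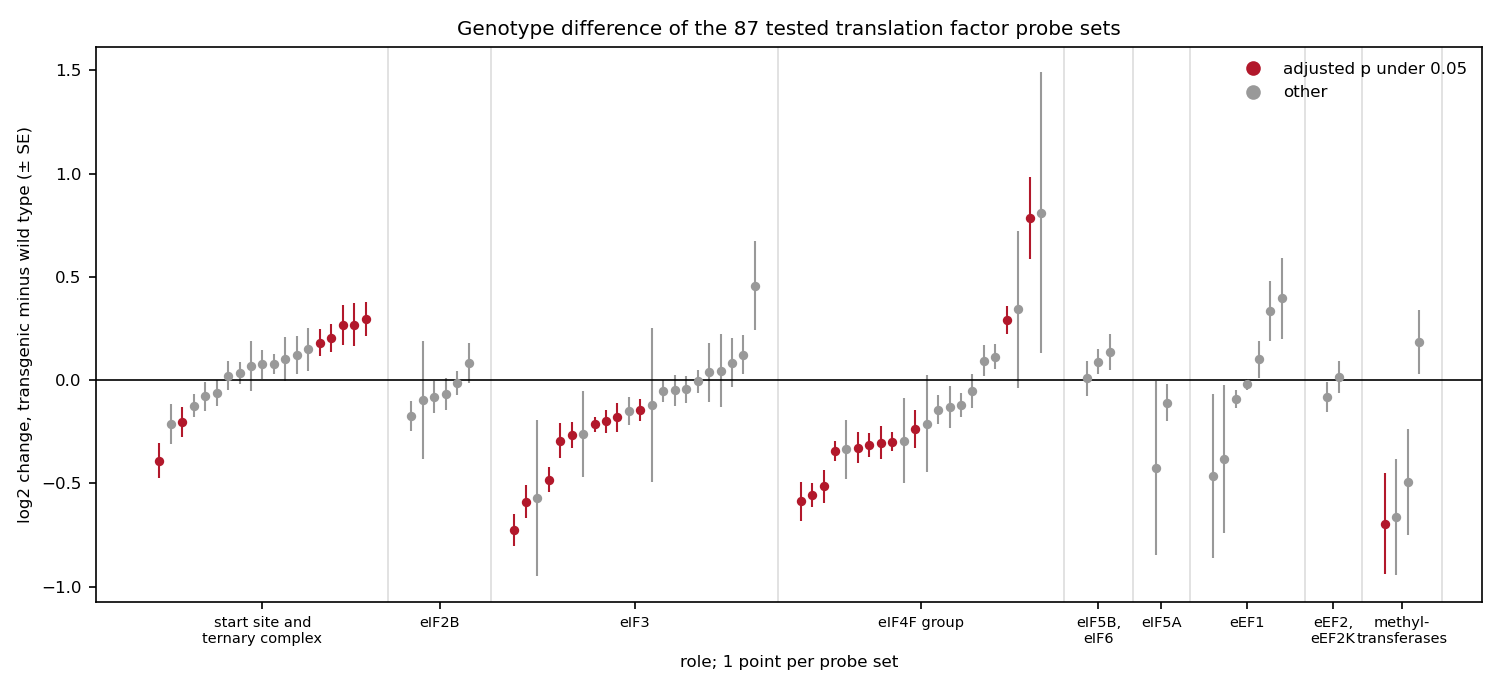
Difference between AKT1 transgenic and wild type prostate on placebo for the 87 translation factor probe sets tested, as log2 intensity averaged over 12 h, 48 h and 15 d, grouped by role. Points are fitted changes, bars are 1 standard error, and red marks the 28 with an adjusted p below 0.05. The called eIF3 probe sets all lie below 0, and the 7 called above 0 are from Eif4g3, Eif4e2, Eif2d, Eif1ax and Eif5.

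Among the eIF3 subunits, which together form the largest initiation factor and the platform for the other factors on the small subunit, Eif3e and Eif3f differed most. At 12 h the Eif3e probe set 1460432_a_at read 1219, 1218, 979.8 and 1039.5 in wild type and 711, 730.0, 813 and 638 in transgenic placebo. At 48 h it read 1112, 1272, 1087 and 1199 in wild type and 633, 741, 688, 562 and 836 in transgenic placebo. Every transgenic array lay below every wild type array at both times. At 15 d wild type read 1263, 1320.3 and 1469 and the 7 transgenic arrays lowest 650.5, median 798, highest 916, again without overlap. The change was -0.73 (SE 0.079, adjusted p = 5.08e-09), and a further Eif3e probe set (1434523_x_at) gave -0.59 (adjusted p = 5.01e-07).

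Eif3f, a core subunit with a domain shared by deubiquitinating enzymes, read 1684, 1584, 1442 and 1372 in wild type and 833, 836, 1092 and 954 in transgenic placebo at 12 h. At 48 h it read 1522, 1421, 1375 and 1502 and 1191, 1113, 929.8, 923 and 1093. The groups were fully apart at both times. At 15 d they overlapped, with 1548, 1701 and 1701 in wild type and lowest 1078, median 1392, highest 1575 in transgenic placebo. The mean change was -0.48 (SE 0.062, adjusted p = 1.36e-07). Within the 7 arrays of 15 d that did not stand apart the difference was -0.49, and the 5 transgenic placebo arrays that did stood 0.33 above the other 2.

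The third Eif3e probe set, 1439268_x_at, gave -0.57 (adjusted p = 0.258). Of the remaining eIF3 subunits, Eif3i fell by 0.21 (adjusted p = 1.19e-05), Eif3c by 0.27 on 1 of 4 probe sets, Eif3h by 0.20 and Eif3k by 0.29. Eif3l fell by 0.14 (adjusted p = 0.0355) and Eif3b by 0.18 (adjusted p = 0.0447). A further probe set gave 0.12 for Eif3i (1448264_a_at, adjusted p = 0.345) and 0.038 for Eif3l (1437948_x_at, adjusted p = 0.867), and the other 3 of Eif3c gave -0.045, -0.0067 and 0.085, none called. Eif3b and Eif3l 1423728_at sat near the threshold: Eif3b was called in 2 of 11 other settings and Eif3l in 5 of 11. Leaving out any of 13 placebo arrays ended the call of Eif3b (adjusted p up to 0.166), and any of 7 that of Eif3l (up to 0.0858).

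The cap-binding group recruits the ribosome to the message. Eif4g2 encodes a relative of eIF4G that lacks the cap-binding protein's docking site, and its probe set 1428362_at gave the smallest p of all members. It read 1118, 1176, 973 and 1108 in wild type and 626, 637, 739.6 and 645 in transgenic placebo at 12 h. At 48 h it read 1189.8, 1131, 1034 and 1107 and 725, 767, 774, 725 and 760.0. Transgenic arrays were lower without overlap at both times. At 15 d wild type read 973, 1026 and 1259, and transgenic placebo lowest 719.9, median 808, highest 988, a small overlap. The change was -0.56 (SE 0.058, adjusted p = 1.76e-09). The other Eif4g2 probe sets tested did not share it: 1415863_at gave 0.094 (adjusted p = 0.352) and 1452758_s_at gave 0.11 (adjusted p = 0.153), so the message as a whole cannot be said to be lower.

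Eif4b and Eif4h, which stimulate the helicase eIF4A, were lower on every probe set tested, 3 for each gene. Eif4b (1426378_at) read 835, 1047, 836 and 918 in wild type and 624, 665, 809 and 581 in transgenic placebo at 12 h. At 15 d it read 1274, 1177 and 1194 in wild type and lowest 522, median 714, highest 911 in transgenic placebo. The groups did not overlap at either time, while at 48 h the lowest wild type array (768) lay just below the highest transgenic array (771). The changes were -0.51, -0.59 and -0.24 over the 3 probe sets, with adjusted p of 3.7e-06, 6.93e-06 and 0.0449. Eif4h (1451521_x_at) read 838, 839, 824 and 957 in wild type and 659, 659, 664 and 574 in transgenic placebo at 12 h. Its 3 changes were -0.34, -0.30 and -0.31, with adjusted p from 1.25e-06 to 3.2e-05.

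**Figure D2:**
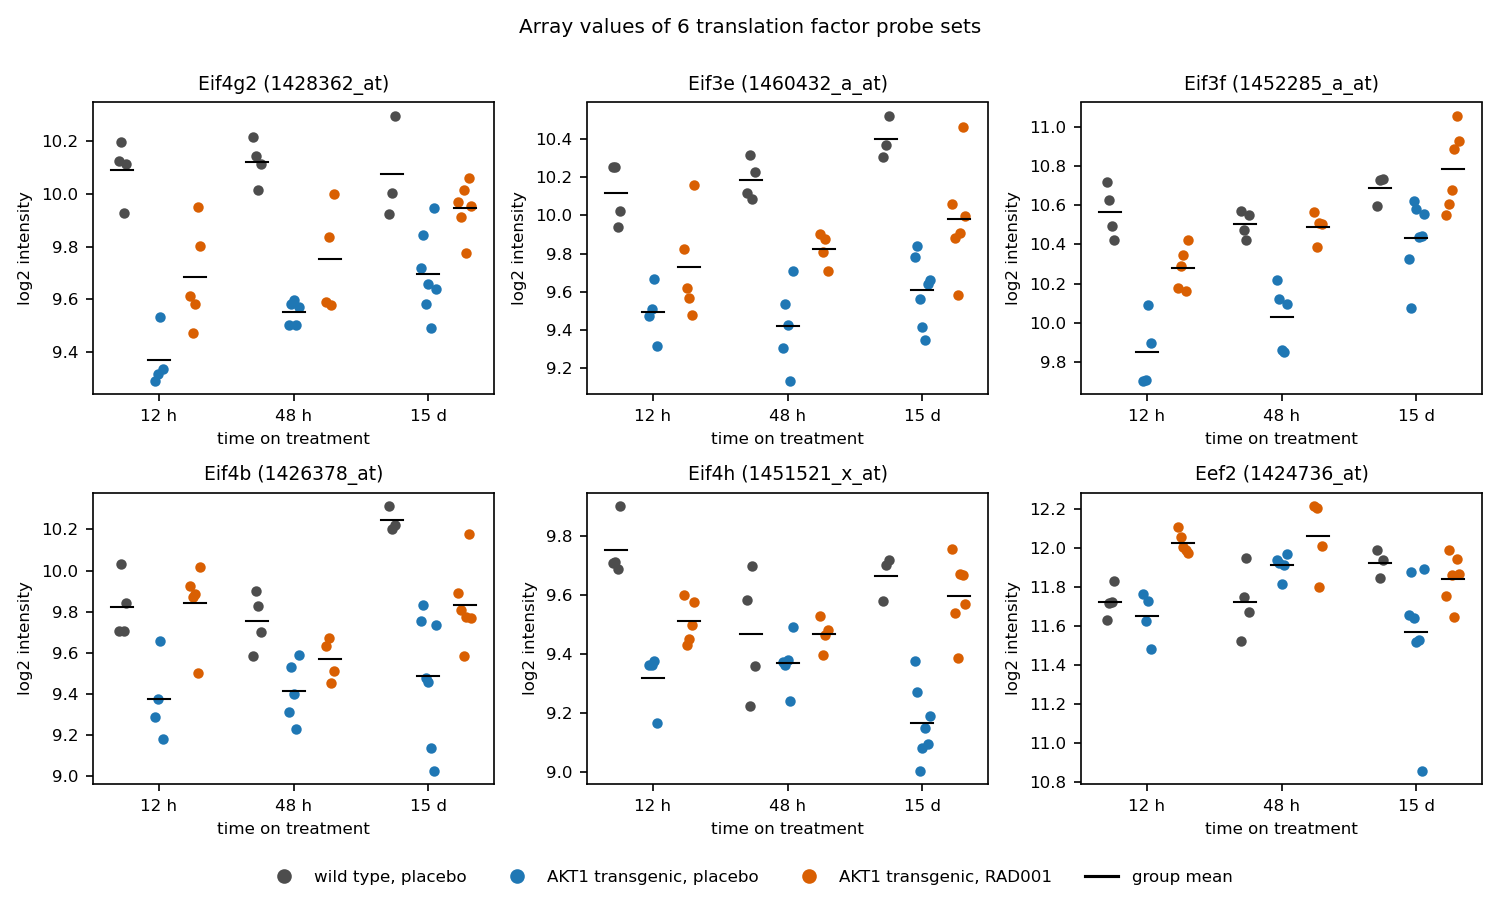
Log2 intensity of Eif4g2 (1428362_at), Eif3e (1460432_a_at), Eif3f, Eif4b (1426378_at), Eif4h (1451521_x_at) and Eef2 by group at 12 h, 48 h and 15 d. Each point is 1 array and each bar the group mean; at 12 h and 48 h the wild type arrays of Eif4g2, Eif3e and Eif3f lie above all transgenic placebo arrays, and those of Eef2 do not.

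The helicase gene Eif4a2 fell by 0.33 (adjusted p = 0.000755), and Eif4e3, a cap-binding relative of eIF4E, by 0.30 (adjusted p = 0.00321). Eif4g3, an eIF4G scaffold, rose by 0.29 (adjusted p = 0.000688). It read 252, 256, 283 and 322 in wild type and 393, 376, 369 and 396 in transgenic placebo at 12 h, without overlap. Eif4e2, a cap-binding protein that represses translation, rose by 0.79 on 1 dim probe set (adjusted p = 0.00218), with much of the difference at 15 d, where it read 39.0, 72.8 and 55.6 in wild type and lowest 70.3, median 183, highest 342 in transgenic placebo. That probe set was 1.40 higher in the 5 transgenic placebo arrays that stood apart than in the other 2. Its other 3 probe sets gave -0.29, -0.13 and -0.054, none called. The cap-binding protein Eif4e gave 0.34 on its brightest probe set (1450908_at, adjusted p = 0.53), which was listed at 0 on wild type 12 h replicate 1 and transgenic placebo 15 d replicate 9, and -0.14 on 1423220_at (adjusted p = 0.109). The helicase Eif4a1 gave -0.12 (adjusted p = 0.118), and its other 2 probe sets -0.33 and 0.81 (1430980_a_at), the latter listed at 0 on 6 arrays of 15 d, neither called. The scaffold Eif4g1 and the eIF2 alpha gene Eif2s1 had no probe set among the members.

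Factors of start site selection were mixed, with 5 probe sets higher and 2 lower of 19 tested. Eif2d, which can place initiator tRNA without GTP, was higher on all 3 probe sets tested, by 0.30, 0.27 and 0.18, with the adjusted p between 0.00471 and 0.048. Eif1ax, the X-linked gene of the scanning factor eIF1A, rose by 0.20 (adjusted p = 0.0189). Its relative Eif1a fell by 0.39 on probe set 1424344_s_at (adjusted p = 0.000384) and gave 0.10 on 1424343_a_at (adjusted p = 0.484). Eif5, which makes eIF2 release its GTP at the start codon, was lower by 0.20 on one probe set and higher by 0.27 on another (adjusted p = 0.0262 and 0.0286), so its direction depended on the probe set, and its other 2 gave -0.21 and -0.077, neither called. Without the 9 arrays of 15 d that stood apart, Eif1ax (0.11, adjusted p = 0.222), Eif2d 1451211_a_at (0.17, adjusted p = 0.0958) and both Eif5 probe sets lost their calls. Also without them 28 members were called (34.9% of all probe sets were), of which 17 were among the 28 above.

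No elongation factor was called between genotypes in the mean over the 3 times, though single times and the F-test over times gave calls. Eef1a1, the abundant carrier of aminoacyl-tRNA, gave -0.02 (SE 0.028, adjusted p = 0.615), with 7556, 7993, 8172 and 7544 in wild type and 7708, 7529, 7120.2 and 6990.0 in transgenic placebo at 12 h. Eef2, the translocase, gave -0.082 (SE 0.072, adjusted p = 0.409). At 15 d alone Eef2 was lower, by 0.36 (adjusted p = 0.0376), with 4072, 3679.8 and 3933 in wild type and lowest 1856, median 3194, highest 3803 in transgenic placebo, which overlapped, and within the 7 arrays that did not stand apart the difference was -0.16 (adjusted p = 0.864). Eef1e1, a scaffold protein of the tRNA synthetase complex, was higher by 0.73 at 12 h (adjusted p = 0.0369). Eef1d, a subunit of the exchange factor of eEF1A, was higher by 0.52 at 48 h on 1 of 3 probe sets (adjusted p = 0.0109). Both were also called in the F-test for a genotype difference that depends on time (adjusted p = 0.0426 and 0.0236). The eEF2 kinase Eef2k gave 0.014 (SE 0.078, adjusted p = 0.913) and Eif5a, which relieves stalled ribosomes, -0.11 (SE 0.091, adjusted p = 0.376). Of these the interval is narrow for Eef1a1 alone, from -0.077 to 0.036. Eef1a2, the form of eEF1A known from muscle and nerve, gave 0.40 (SE 0.20, adjusted p = 0.121) with 1 wild type array at 12 h listed at 0. Eef1akmt1, a methyltransferase of eEF1A, fell by 0.70 on 1 of its 4 probe sets (adjusted p = 0.0257), and the others gave -0.66, -0.49 and 0.18, none called.

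Other genes of translation moved in both directions between genotypes. Of 25 translation regulators tested 5 were higher and 7 lower, among them Mknk1, a kinase of eIF4E, at 1.25, Eif2ak3, the endoplasmic reticulum kinase of eIF2 alpha, at 0.68, Pabpc1, the poly(A)-binding protein, at -0.38 and Eif4ebp2, an inhibitor of eIF4E, at -0.53. Of 39 ribosomal protein genes tested 2 were higher and 12 lower, of 20 tRNA synthetase genes 2 and 5, and of 8 release and recycling factors 0 and 2. Over all probe sets tested 15.1% were higher and 18.4% lower.

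RAD001 moved few members at any time. The comparisons at 12 h, 48 h and 15 d each set RAD001 against the transgenic placebo arrays of that time, and those placebo arrays are the ones that gave the genotype difference, so the values of both are given side by side and no overlap between them was tested. At 12 h 1 of 87 members was called, higher (1.15%, against 1.47% of all probe sets and 0.626% higher). At 48 h 5 were called (5.75%, against 3.45% of all), 3 higher (1.97% of all) and 2 lower (1.47% of all). At 15 d 5 were called, all higher (5.75%, against 5.53% of all in either direction and 2.42% higher). The median changes of the members were 0.015, 0.060 and 0.041, and those of all probe sets 0.021, 0.0037 and 0.017. RAD001 and placebo arrays did not overlap for 8, 9 and 2 of 87 members at the 3 times. Over all probe sets the shares without overlap were 7.46%, 7.62% and 1.94%. Leaving out 1 array at a time gave 0 to 6 members at 12 h, 2 to 6 at 48 h and 3 to 12 at 15 d.

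Eif3f was the only member called at all 3 times. At 12 h it read 833, 836, 1092 and 954 on placebo and 1156, 1252, 1302, 1145 and 1374 on RAD001. At 48 h it read 1191, 1113, 929.8, 923 and 1093 on placebo and 1514, 1337, 1455 and 1452 on RAD001. Every RAD001 array lay above every placebo array at both times, and at 48 h 3 of the 4 RAD001 arrays lay in the range of the wild type arrays. At 15 d placebo read lowest 1078, median 1392, highest 1575 and RAD001 lowest 1499.8, median 1769, highest 2133, with overlap. The changes were 0.43 (SE 0.10, adjusted p = 0.0259), 0.46 (SE 0.10, adjusted p = 0.00896) and 0.35 (SE 0.086, adjusted p = 0.0103). At 12 h the call was lost on leaving out placebo replicate 1 or 2 or RAD001 replicate 2, 3 or 5, with changes of at least 0.38 and an adjusted p of up to 0.128.

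Eif3e rose on 2 of its 3 probe sets tested. Probe set 1434523_x_at read 648, 685, 614, 524 and 685 on placebo and 1030.2, 762, 953 and 949.6 on RAD001 at 48 h, without overlap. It rose by 0.55 at 48 h (adjusted p = 0.0183) and by 0.44 at 15 d (adjusted p = 0.0158), and gave 0.30 at 12 h (adjusted p = 0.362). Probe set 1460432_a_at rose by 0.37 at 15 d (adjusted p = 0.0368) and gave 0.24 at 12 h and 0.40 at 48 h. The third, 1439268_x_at, gave -1.44 at 15 d (adjusted p = 0.11), the opposite sign, and was listed at 0 on RAD001 15 d replicates 6 and 7. It gave 0.34 at 12 h and 0.66 at 48 h, neither called. At 48 h the call of 1434523_x_at was lost without placebo replicate 4 or RAD001 replicate 1, 4 or 5 (adjusted p up to 0.0655). Without RAD001 15 d replicate 6, the highest array of both called probe sets, they gave 0.32 (adjusted p = 0.0731) and 0.28 (adjusted p = 0.148).

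Eif4h changed at 15 d. Probe set 1451521_x_at read lowest 514, median 568, highest 665 on placebo and lowest 669, median 787, highest 865 on RAD001, with no overlap. All placebo arrays lay below the wild type arrays of 15 d, and the RAD001 arrays spanned from below to just above them. It rose by 0.43 (SE 0.07, adjusted p = 0.000138) and 1438554_x_at by 0.33 (adjusted p = 0.00185), while 1416941_s_at gave 0.18 (adjusted p = 0.185). At 12 h and 48 h 1451521_x_at gave 0.19 and 0.10, neither called. The F-test that its RAD001 change was equal at 12 h, 48 h and 15 d gave an adjusted p of 0.233.

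The remaining calls came at 48 h. Eif1b, a close relative of the start codon factor eIF1, read 147, 169.8, 177, 170.2 and 132 on placebo and 243, 237, 274 and 285 on RAD001. It rose by 0.71 (SE 0.15, adjusted p = 0.00689) without overlap, the largest called change of any member under RAD001, against 0.32 at 12 h and 0.0027 at 15 d. Eif2b1, a subunit of the exchange factor that reloads eIF2 with GTP, read 369, 486, 329, 348 and 326 on placebo and 295, 308, 234 and 257 on RAD001 and fell by 0.43 (adjusted p = 0.0362). Eif2s2, the beta subunit of eIF2, read 939, 1143, 919, 923 and 1015 and 695, 867, 752 and 723 and fell by 0.38 (adjusted p = 0.0372). In both the RAD001 arrays lay below the placebo arrays without overlap. The other 5 probe sets of Eif2s2 gave -0.26 to 0.16 and were not called (lowest adjusted p = 0.107). Eif2b1 lost its call without placebo replicate 2 or 4 or RAD001 replicate 4 or 5 (adjusted p up to 0.138), and Eif2s2 without any array but placebo replicate 1 and RAD001 replicate 2 (up to 0.11). Eif3a gave -1.80 at 48 h (adjusted p = 0.107) with RAD001 replicate 4 listed at 0, while the other 3 arrays read 1326 to 1339.

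**Figure D3:**
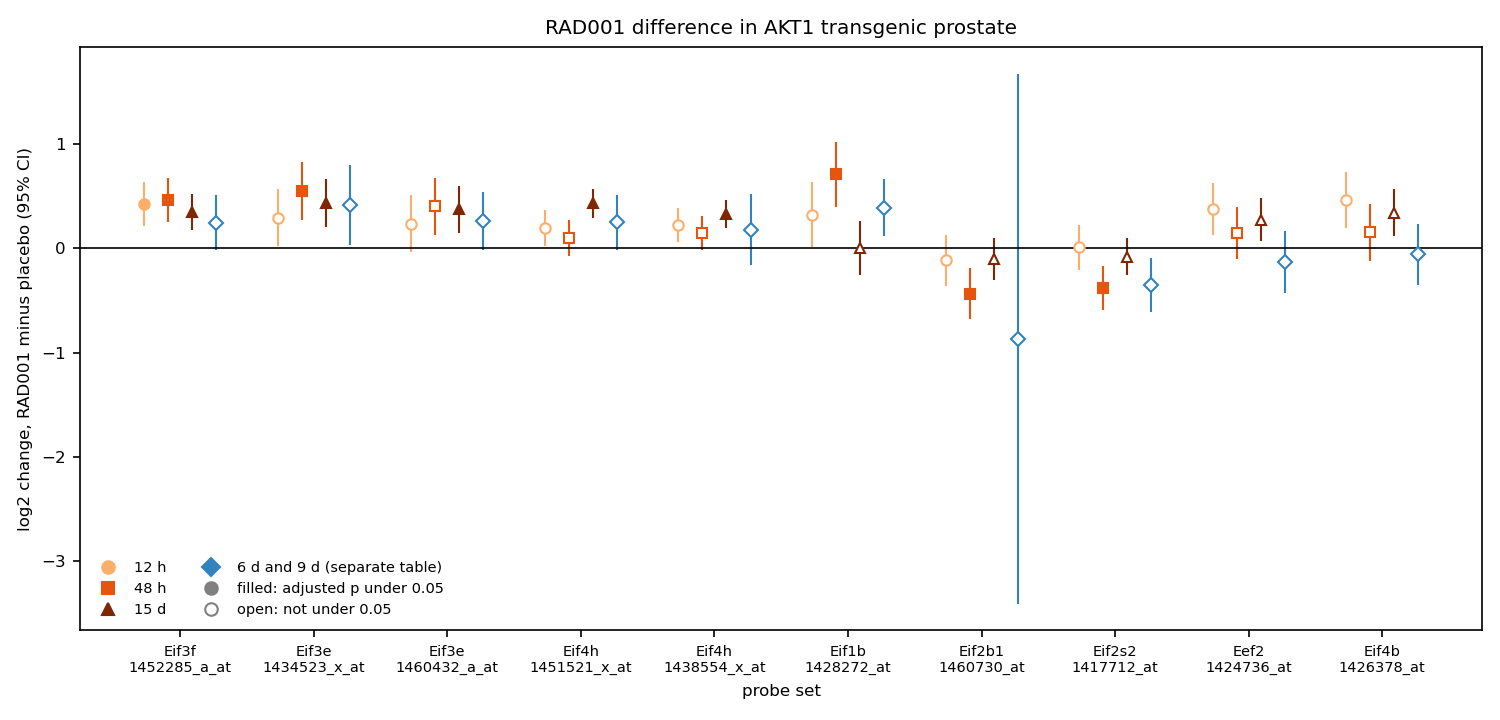
RAD001 minus placebo in AKT1 transgenic prostate for 10 translation factor probe sets at 12 h, 48 h and 15 d and for 6 d and 9 d averaged, as log2 intensity. Points are fitted changes, bars are 95% confidence intervals and filled points have an adjusted p below 0.05; Eif3f is filled at 12 h, 48 h and 15 d, Eif1b and Eif2b1 at 48 h only, and none at 6 d and 9 d.

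Several factors whose messages or proteins are known mTOR targets gave changes that did not pass. Eef2 read 3483, 3163, 3391 and 2859 on placebo and 4425, 4255, 4115, 4071 and 4034 on RAD001 at 12 h. The groups did not overlap, but the change of 0.38 (SE 0.12) had an adjusted p of 0.119, with 0.15 at 48 h and 0.28 at 15 d. Eif4b (1426378_at) gave 0.46 at 12 h (adjusted p = 0.0743), 0.15 at 48 h and 0.34 at 15 d (adjusted p = 0.0603). Eef1a1 gave 0.15, 0.022 and 0.041 (adjusted p = 0.0986, 0.92 and 0.602). Eif4a1 gave -0.32, -0.27 and -0.17, with an adjusted p of 0.11 at 12 h. Eif4e, Eif5a and Eef2k were not called at any time. Eef1e1 gave -0.82 at 12 h (adjusted p = 0.0833).

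At 15 d the arrays that stood apart were in both treatments, so RAD001 was also compared within each set. In the 9 arrays (5 placebo, 4 RAD001) Eif3f gave 0.36, Eif4h 1451521_x_at 0.47, Eif3e 1434523_x_at 0.50 and Eif4b 1426378_at 0.46. In the other arrays, 2 for each treatment, the same probe sets gave 0.38, 0.32, 0.32 and 0.055. The sizes were close for Eif3f and further apart for Eif4b. Eif3e 1439268_x_at went the other way in the 9 arrays, with -2.32 (adjusted p = 0.0116), and gave 0.38 in the other arrays (adjusted p = 1). Without the 9 arrays no member was called at 15 d (0 of 85 tested, against 0.449% of all probe sets). With the array set as a term in the fit 7 of 87 were (7.72% of all probe sets were), including the 5 above. Both settings were chosen after the data had been seen.

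**Figure D4:**
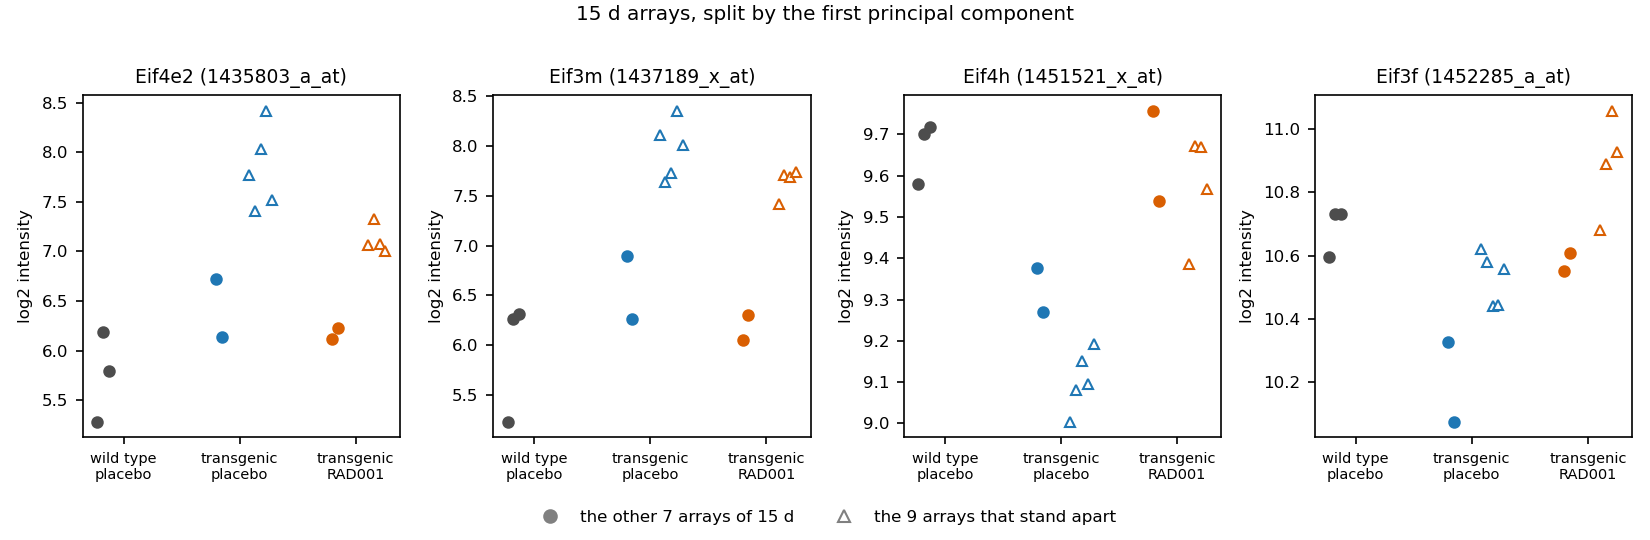
Log2 intensity of Eif4e2 (1435803_a_at), Eif3m (1437189_x_at), Eif4h (1451521_x_at) and Eif3f at 15 d in wild type placebo, transgenic placebo and RAD001. Each point is 1 array and the marker shows whether it is among the 9 that stood apart or the other 7; the 9 are above the others for Eif4e2 and Eif3m in both treatments, while for Eif4h RAD001 lies above placebo within each set.

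At 6 d and 9 d each day had 1 placebo array, and the mean of the changes of both days was tested with the spread of the RAD001 arrays. None of the 92 members tested was called in limma (0.803% of all 13576 probe sets were), and the lowest adjusted p was 0.268. An unadjusted p below 0.05 was reached by 15 of the 92 members and by 1340 of all 13576 probe sets. Eif3f read 1321 on placebo and 1560.2, 1623 and 1540.3 on RAD001 at 6 d. At 9 d it read 1423 and 1773, 1937, 1428 and 1633. All 7 RAD001 arrays were above the placebo array of their day, the lowest of them only just. The change was 0.25 (adjusted p = 0.553). Eif3e 1434523_x_at gave 0.42, Eif1b 0.39 and Eif2b1 -0.87, the last with RAD001 9 d replicate 3 listed at 0.

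Markers of other cells moved with RAD001 too. Over all probe sets tested 0.626%, 1.97% and 2.42% were higher at 12 h, 48 h and 15 d, and 0.84%, 1.47% and 3.1% lower. Of 10 smooth muscle markers tested 1 was higher at 12 h, 2 at 48 h and 4 at 15 d, of 10 fibroblast markers 0, 2 and 2, and of 6 basal markers 0, 2 and 1, with none lower in these lists. Of 13 luminal epithelial markers 1 was lower and none higher at each of the 3 times, and of 7 macrophage and lymphocyte markers 1 was higher at 15 d. Their part in the rises of Eif3f, Eif3e and Eif4h was not tested. Among the other genes of translation, the translation regulators had 0, 0 and 2 of 25 higher and none lower. At 6 d and 9 d 1 of them was lower (0.545% of all probe sets were). The pair at 15 d were Ddit4, an inhibitor of mTOR, at 2.73 and Eif4ebp2 at 0.81. Ddit4 had no steady direction, with -1.19 at 12 h and -2.07 at 48 h, neither called, and -2.67 at 6 d and 9 d (adjusted p = 0.000214). Of 20 tRNA synthetase genes 1 was lower at 12 h and 1 at 15 d, and of 8 release and recycling factors 1 was lower at 15 d. Of 39 ribosomal protein genes 0, 0 and 3 were higher, Rps9 by 0.48 at 15 d, and 0, 1 and 0 lower.

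The F-test for a RAD001 change that differs between 12 h, 48 h and 15 d called no member in limma (0.398% of all were called). An unadjusted p below 0.05 was reached by 10 of 87 members and by 1679 of all 13574 probe sets. The lowest adjusted p was 0.182, for Eif1b. Calls at some times and not at others are therefore not shown to be differences between times.

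Members also differed between the wild type placebo arrays of 48 h and those of 12 h, which are separate samples. At 48 h against 12 h, 19 of 87 members were called in wild type (21.8%, from 15 genes, against 16.4% of all), 17 higher (9.29% of all) and 2 lower (7.15% of all), with a median change of 0.15 against 0.022 for all probe sets. In transgenic placebo the same comparison called none in limma (0% of all probe sets), with a median of 0.033. Of the 87 members 2 had an unadjusted p below 0.05 there, against 625 of all 13574 probe sets. In wild type the arrays of 48 h and 12 h did not overlap for 33 of 87 members (29.4% of all probe sets). In transgenic placebo they did not for 1 member (2.22% of all). The labels do not say what sets the times apart in mice on placebo.

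Eif4e was called on 1 of its 2 probe sets. Probe set 1423220_at read 179.7, 164, 217 and 190.3 at 12 h and 279.7, 348, 329.6 and 277 at 48 h in wild type. In transgenic placebo it read 173, 169, 201 and 182 at 12 h and 193, 204, 229.8, 167 and 183 at 48 h. The wild type arrays of the 2 times did not overlap and the transgenic arrays did. The changes were 0.72 (SE 0.12, adjusted p = 0.000245) and 0.10 (adjusted p = 1). The brighter probe set 1450908_at gave 1.31 in wild type (SE 0.68, adjusted p = 0.185), where it read 0, 302, 308 and 241 at 12 h and 308, 387, 356 and 324 at 48 h.

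Factors of start site selection held 8 of the 17 rises in wild type. Eif2d (1451211_a_at) read 259, 253, 258 and 218 at 12 h and 326, 406, 465 and 378 at 48 h and rose by 0.67 (adjusted p = 0.000245). Eif1a (1424343_a_at) read 107, 109, 103 and 56.5 and 185, 213, 140.5 and 178 and rose by 0.96 (adjusted p = 0.000776). Neither group pair overlapped. The brighter Eif1a probe set 1424344_s_at gave 0.029 (adjusted p = 0.925). Eif1ax rose by 0.47, Eif1b by 0.63, Eif2s2 by 0.46 and Eif5 by 0.54, the latter 2 on 1 probe set each.

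In the other roles the rises were Eif5b, the GTPase that joins the ribosomal subunits (0.51 and 0.59 on its 2 probe sets), Eif6, which keeps free large subunits apart (0.34), Eif3k (0.61), Eif3l (0.40 and 0.79), Eif3c (0.40 on 1 of 4 probe sets) and Eef1e1 (0.83). The falls were Eef1d by 0.57 on 1 probe set and Eif4h by 0.29 on 1 probe set. Of the tRNA synthetase genes 7 of 20 rose and 1 fell in the same comparison, and of the release and recycling factors 3 of 8 rose and 1 fell. Over all probe sets tested 9.29% rose and 7.15% fell. Without wild type 12 h replicate 4, or without wild type 48 h replicate 2, 12 members were called.

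The genotype difference also depended on the time. The F-test for a difference between 12 h, 48 h and 15 d called 19 of 87 members (21.8%, from 15 genes, against 21.3% of all), a share near the background. Eif4e 1423220_at stood at -0.045 at 12 h, -0.66 at 48 h and 0.28 at 15 d (F = 16.7, adjusted p = 0.00136). Eif2d 1451211_a_at stood at 0.39, -0.28 and 0.44 (adjusted p = 0.00255). Eif5b 1434604_at stood at 0.18, -0.35 and 0.58 (adjusted p = 0.00681), and Eif1a 1424343_a_at at 0.36, -0.55 and 0.50 (adjusted p = 0.00756). In all 4 probe sets transgenic prostate was lower than wild type at 48 h and higher at 15 d. The other probe sets of Eif4e (1450908_at, adjusted p = 0.11), Eif5b (1434605_at, 0.253) and Eif1a (1424344_s_at, 0.284) were not called in the F-test, and the other 2 of Eif2d were. The signs at 48 h and 15 d come from differences that were not each called, and the 15 d values include the arrays that stood apart. Within the other 7 arrays of 15 d the differences were 0.043 for Eif4e 1423220_at, 0.40 for Eif2d, 0.32 for Eif5b and 0.18 for Eif1a.

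**Figure D5:**
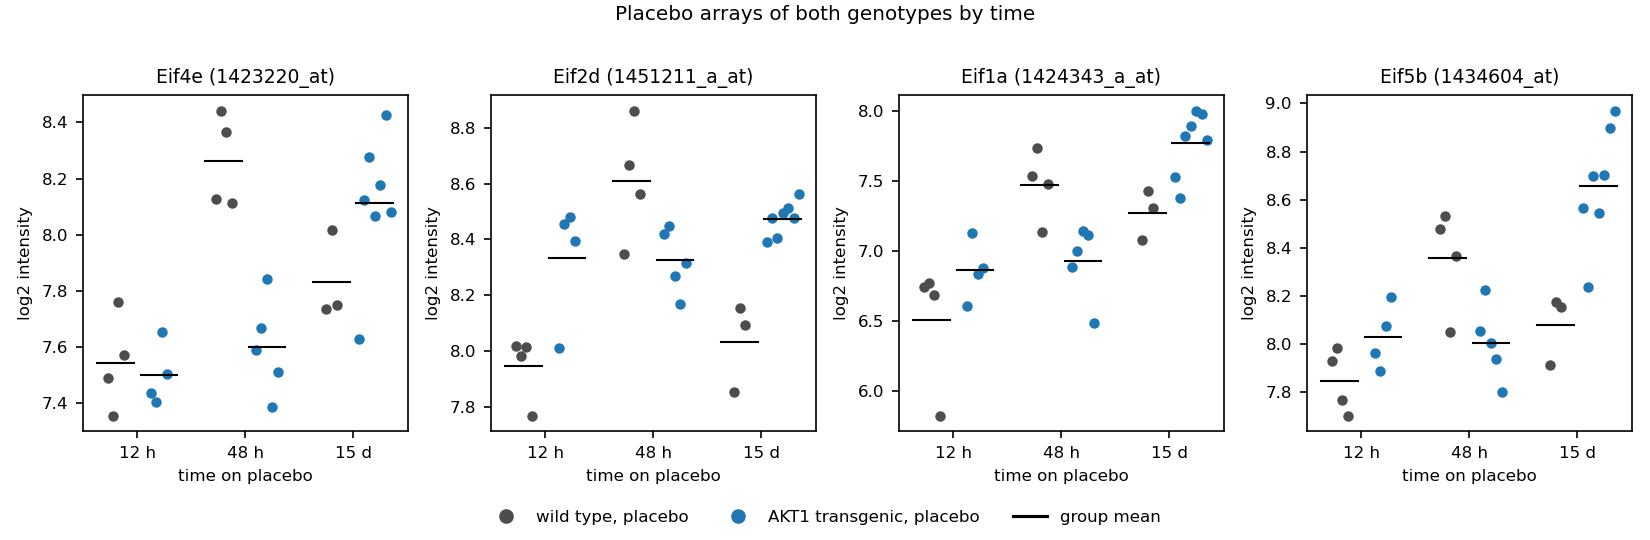
Log2 intensity of Eif4e (1423220_at), Eif2d (1451211_a_at), Eif1a (1424343_a_at) and Eif5b (1434604_at) on placebo at 12 h, 48 h and 15 d in wild type and AKT1 transgenic prostate. Each point is 1 array and each short line a group mean. Wild type lies higher at 48 h than at 12 h for all 4, and the transgenic placebo arrays of those times overlap.

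By contrast Eif3e, Eif4b and Eif4g2, whose genotype differences were among the largest, gave no call in that F-test. Eif3e 1460432_a_at stood at -0.62, -0.76 and -0.79 (adjusted p = 0.76). Eif4b 1426378_at stood at -0.44, -0.34 and -0.76 (adjusted p = 0.208), and Eif4g2 1428362_at at -0.72, -0.57 and -0.38 (adjusted p = 0.162). Eif3f stood at -0.72, -0.48 and -0.25 (adjusted p = 0.0674). Within the 15 d arrays that did not stand apart, Eif3e 1460432_a_at gave -0.59 in limma (adjusted p = 0.0892). Eif4b 1426378_at gave -0.45 (adjusted p = 0.201) and Eif4g2 1428362_at -0.29 (adjusted p = 0.343). The 5 transgenic placebo arrays that stood apart lay below the other 2 by 0.29 for Eif3e, 0.42 for Eif4b and 0.12 for Eif4g2. Without the 9 arrays 7 members were called in this F-test (8.83% of all probe sets were). The count was 9 to 11 without wild type 48 h replicate 2 or 4, wild type 15 d replicate 1 or 3 or transgenic placebo 48 h replicate 5. Eif4e 1423220_at and Eif2d 1451211_a_at kept their calls in each of these fits.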

How the data were processed

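Ventral prostate RNA was extracted with Trizol, labelled with biotin as cRNA and hybridised, per the labels' protocols. The authors deposited linear probe set intensities, per the labels, scaled between arrays in a way not given in the sources used here, in 2 tables of 42 and 9 arrays that were fitted separately. Values under 16 took the floor, log2 was taken, and probe sets under the 40th percentile of mean log2 were left out. Control probe sets, and 2 probe sets with values beyond 65535 in the larger table, were left out. Each table was fitted in limma 3.58.1 (R 4.3.3) with 1 mean per group and an intensity trend in the variances. The genotype change is the mean of the transgenic minus wild type differences on placebo at 12 h, 48 h and 15 d, and RAD001 was set against the transgenic placebo of its time. The fit was tested on simulated data. Members called, the 6 largest changes and 10 central factors could be named. A gene stands for its brightest probe set unless another is named, and for genes called by genotype or RAD001 other probe sets are given where call or sign differs. The members and lists were chosen with earlier results of these data known. Alternatives covered floor, filter, normalisation, weights, arrays and the replicate number as a block. The number of arrays limits the precision, and no depth applies. The labels call the arrays of a group biological replicates.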

Additional observations from a re-analysis of the deposited data

Results flagged for a closer look

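In 34 of 369 pairs of a probe set and a group of 4 to 10 arrays (9.21%) 1 array lay far from the others, where chance gives about 1 in 20. The values are log2 intensities, each set beside the nearest other array of its group. RAD001 12 h replicate 4 stood at 8.42 against 8.71 for Eif3k 1452674_a_at, 8.76 against 9.07 for Eif3l 1423728_at, 9.5 against 9.87 for Eif4b 1426378_at, 8.71 against 9.36 for Eif4b 1426380_at, 10.2 against 9.72 for Eif2s2 1417712_at, 7.66 against 8.2 for Eif5b 1434604_at and 11.62 against 11.38 for Eif5a 1451470_s_at. Wild type 12 h replicate 4 stood at 9.11 against 9.53 for Eif4b 1426380_at, 9.9 against 9.71 for Eif4h 1451521_x_at, 7.77 against 7.98 for Eif2d 1451211_a_at and 5.82 against 6.69 for Eif1a 1424343_a_at. Wild type 12 h replicate 2 stood at 9.46 against 9.78 for Eif3e 1434523_x_at, 11.17 against 10.81 for Eif4a2 1450934_at and 4 against 6.81 for Eef1a2 1418062_at. RAD001 9 d replicate 3 stood at 4 against 7 for Eif4e3 1417977_at, 4 against 8.28 for Eif2b1 1460730_at and 8.34 against 8.7 for Eif5b 1434604_at. RAD001 48 h replicate 1 stood at 9.38 against 9.12 for Eif3l 1423728_at and 10.01 against 9.65 for Eif3b 1426674_at. Wild type 48 h replicate 3 stood at 9.53 against 9.36 for Eif4b 1426380_at and 8 against 7.77 for Eif4e3 1417977_at. Transgenic placebo 12 h replicate 3 stood at 9.5 against 9.1 for Eif3e 1434523_x_at. RAD001 15 d replicate 6 stood at 10.5 against 10.08 for Eif3h 1415962_at. RAD001 48 h replicate 4 stood at 4 against 10.37 for Eif3a 1448425_at. Transgenic placebo 12 h replicate 4 stood at 9.17 against 9.36 for Eif4h 1451521_x_at. RAD001 48 h replicate 2 stood at 7.94 against 8.39 for Eif1ax 1419736_a_at. Wild type 48 h replicate 2 stood at 10.4 against 10.05 for Eif5 1454664_a_at. Transgenic placebo 48 h replicate 1 stood at 7.21 against 7.78 for Eif5 1454663_at. RAD001 15 d replicate 1 stood at 7.94 against 8.41 for Eif5b 1434604_at. Wild type 12 h replicate 1 stood at 11.4 against 11.64 for Eif5a 1451470_s_at. Transgenic placebo 15 d replicate 9 stood at 10.86 against 11.52 for Eef2 1424736_at. Wild type 12 h replicate 3 stood at 7.41 against 7.11 for Eef2k 1449013_at. Transgenic placebo 48 h replicate 5 stood at 7.7 against 7.34 for Eef2k 1449013_at. RAD001 9 d replicate 2 stood at 10.06 against 10.13 for Eif4a1 1434985_a_at.

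The difference between transgenic and wild type prostate on placebo differed between 12 h, 48 h and 15 d for 12 probe sets described above, by limma's F-test of the difference itself. The adjusted p was 0.00136 for Eif4e 1423220_at, 0.00255 for Eif2d 1451211_a_at, 0.00681 for Eif5b 1434604_at, 0.00756 for Eif1a 1424343_a_at, 0.00815 for Eif1ax 1419736_a_at, 0.00876 for Eif3m 1437189_x_at, 0.0236 for Eef1d 1428135_a_at, 0.0283 for Eif4h 1451521_x_at, 0.0302 for Eif4e2 1435803_a_at, 0.0305 for Eif1b 1428272_at, 0.0377 for Eif3l 1423728_at and 0.0426 for Eef1e1 1449044_at.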

How the results depend on the processing

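Of 61 called values set out above, 30 were called in every alternative run. Over 3178 refits of these values 2974 stayed called, 204 lost the call and 0 changed direction. Counts of members called that moved by over 1.5 times were as follows. For RAD001 at 12 h (1) they were 3 with quantile normalisation, 0 with median scaling, 15 with array weights, 2 with only the groups compared in the fit, 3 with the replicate block, 4 without the arrays with over 500 zeros, 4 with the array set at 15 d as a term and 6 without the 9 arrays of 15 d. Over all probe sets tested 1.47% were called at 12 h in the main fit. The share was 1.47% with quantile normalisation, 1.54% with median scaling and 8.9% with array weights. It was 0.781% with only the groups compared, 1.7% with the replicate block and 2.16% without the arrays with over 500 zeros. With the array set as a term it was 2.29%, and without the 9 arrays 3.09%. For RAD001 at 48 h (5) the member counts were 3 with only the groups compared and 8 without the 9 arrays. Of all probe sets 2.25% and 7% were called there, against 3.45% in the main fit. For RAD001 at 15 d (5) they were 2 with 1 probe set per gene, 2 with only the groups compared and 0 without the 9 arrays. Of all probe sets 5.78%, 1.61% and 0.449% were called there, against 5.53% in the main fit. The genotype count (28) was 16 with 1 probe set per gene (33.5% of all probe sets, as in the main fit). The wild type count for 48 h against 12 h (19) was 8 with 1 probe set per gene and 30 with array weights. Of all probe sets 17.1% and 27.5% were called there, against 16.4% in the main fit. The count of genotype differences that depend on time (19) was 7 with 1 probe set per gene and 7 with the replicate block. It was 9 with the array set as a term and 7 without the 9 arrays. Of all probe sets 20.4%, 10.6%, 9.91% and 8.83% were called in these fits, against 21.3% in the main fit. The count of RAD001 changes that depend on time (0) was 1 with the array set as a term. Of all probe sets 1.01% were called there, against 0.398% in the main fit. With 1 probe set per gene 43 members were tested in place of 87, and without the 9 arrays fewer arrays were fitted. The cause of the moved counts was not tested.

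Leaving out 1 array at a time gave 24 to 33 members for genotype, 0 to 6 for RAD001 at 12 h, 2 to 6 at 48 h, 3 to 12 at 15 d, 0 to 0 at 6 d and 9 d, 12 to 21 for wild type 48 h against 12 h, 0 to 0 for transgenic placebo, 9 to 23 for genotype by time and 0 to 0 for RAD001 by time. At 12 h the count for RAD001 was 0 without placebo replicate 1 or 2 or RAD001 replicate 2, 3 or 5, and 6 without RAD001 replicate 4. At 48 h it was 3 without placebo replicate 2 and 2 without placebo replicate 4 or RAD001 replicate 4 or 5. At 15 d leaving out placebo replicate 2 gave 12, placebo replicate 10 gave 9 and RAD001 replicate 6 gave 3. The lone placebo arrays of 6 d and 9 d could not be left out.

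Of 30 same-numbered pairs between groups, 2 correlated over 0.1 in their deviations from the group means. Both were among the 4 pairs of RAD001 and placebo at 15 d, with a highest correlation of 0.507. A low correlation cannot show that samples were unpaired, so the number was also fitted as a block. With the number as a block, 24 members were called for genotype (34.8% of all probe sets were). RAD001 gave 3 at 12 h (1.7% of all), 5 at 48 h (4.75%), 5 at 15 d (2.77%) and 0 at 6 d and 9 d (0.0221%). There were 24 for wild type 48 h against 12 h (20.9% of all) and 0 for transgenic placebo (0%). Genotype by time gave 7 (10.6% of all) and RAD001 by time 0 (0.398%). Dim probe sets, such as Eif4e2 1435803_a_at (percentile 42.2 of mean log2, no array at the floor), may have little signal over background, which was not measured. In addition 25 member values were listed at 0 where the probe set was bright elsewhere.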
